A study of Mus musculus with 3 samples.

Results

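RNase MRP and RNase P are 2 related ribonucleoprotein enzymes, each built from 1 RNA and a set of shared proteins. Their components were described here as 9 genes chosen by symbol: the RNAs Rmrp and Rpph1, and the protein subunit genes Pop1, Pop4, Pop5, Pop7, Rpp30, Rpp38 and Rpp40. They hold 10 of the 55536 gene entries measured, since Rmrp is annotated as 2 overlapping entries. RNA bound to chromatin was sequenced, after depletion of ribosomal RNA, from mouse macrophages grown out of C57BL/6J bone marrow. All 3 libraries belong to 1 group. The cells were given lipid A at 100 ng/ml over 12 h, were kept without it for the next 12 h, and then met the same dose again during 90 min. Lipid A is the lipid anchor of bacterial lipopolysaccharide. The libraries started from 1000 ng of RNA in replicate 1, 250 ng in replicate 2 and 500 ng in replicate 3. The labels call them biological replicates of 1 mouse donor entry and mention no separate cultures or animals, so their spread may be partly technical. With 1 condition, all comparisons below were made within each library, between genes or between the deposited tables.

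RNase P removes the 5′ leader of precursor transfer RNAs, and RNase MRP cuts precursor ribosomal RNA between the small and the large subunit parts. In each enzyme the RNA forms the catalytic core, and the proteins bind around it. Rmrp and Rpph1 are made by RNA polymerase III from promoters that lie upstream of the gene, are not polyadenylated and have no introns. The subunit genes are ordinary RNA polymerase II genes whose messenger RNAs are translated in the cytoplasm, and their RNA on chromatin includes transcripts still being made.

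The sequences of both RNAs are printed because the 2 Rmrp entries share almost all of their bases, which decides how reads can be divided between them. They come from the GENCODE M21 transcripts on mm10. The Rmrp entry annotated as a lincRNA spans 281 bases of the minus strand, chr4:43492783-43493063. The Rmrp entry annotated as a ribozyme spans 271 bases, chr4:43492788-43493058, and equals positions 6 to 276 of the lincRNA entry. Capitals in the Rmrp line mark the 5 bases at each end that the lincRNA entry has in addition. Rpph1 spans 319 bases of the minus strand, chr14:50807449-50807767. The Rpph1 line gives its positions 1 to 300, and capitals there mark its longest runs shared with Rmrp.
Rmrp: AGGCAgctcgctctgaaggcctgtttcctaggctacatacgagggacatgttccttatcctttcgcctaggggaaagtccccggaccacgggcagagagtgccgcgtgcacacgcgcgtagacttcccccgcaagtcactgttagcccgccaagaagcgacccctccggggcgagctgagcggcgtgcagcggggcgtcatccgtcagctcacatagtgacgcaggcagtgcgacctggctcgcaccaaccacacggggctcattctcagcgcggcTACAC
Rpph1: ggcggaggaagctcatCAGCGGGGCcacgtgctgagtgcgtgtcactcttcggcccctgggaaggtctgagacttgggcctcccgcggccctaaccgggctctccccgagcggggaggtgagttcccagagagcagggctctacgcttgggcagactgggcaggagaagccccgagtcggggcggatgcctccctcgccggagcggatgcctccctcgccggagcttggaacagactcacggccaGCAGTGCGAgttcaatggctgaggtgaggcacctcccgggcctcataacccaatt
The longest shared runs were 9 bases long, and there were 2 of them. CAGCGGGGC lies at positions 17 to 25 of Rpph1 and 188 to 196 of the Rmrp lincRNA entry, and GCAGTGCGA at 246 to 254 of Rpph1 and 226 to 234 of that entry. Rpph1 also holds a run of 23 bases that occurs at positions 182 to 204 and again at 203 to 225. GC content was 63.7% in the Rmrp lincRNA entry, 64.2% in the ribozyme entry and 67.1% in Rpph1. Reads inside positions 6 to 276 of Rmrp fit both of its entries, so the split between them is an estimate, and the 2 entries were summed for the level of Rmrp.

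The libraries held 12671700, 21747001 and 16915406 expected counts in replicates 1, 2 and 3. TPM is an abundance corrected for length and relative to all features in a library. The authors deposited it in a gene table made from alignments and in a transcript table made directly from reads, which is called the read-based table here. All 10 macrophage markers, among them Adgre1, reached 1 TPM in each library of either table. Of 32 markers of 6 other blood and stromal cell types, 1 did in the gene table, the erythroid gene Alas2, and 8 did in the read-based table. The T cell gene Cd3d, with 0 counts in the gene table, had 18.1, 14.1 and 16.8 TPM in the read-based one. The summed level of the 32 markers was 7.26 to 7.64 TPM per library in the gene table and 38.6 to 42.6 TPM in the read-based table, and 8 of them had 0 counts throughout in the gene table. Their part in the members' levels was not tested.

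Rmrp was among the most abundant RNAs on chromatin and differed more between libraries than nearly all other genes. Its summed level in the gene table was 30208 TPM in replicate 1, 143531 TPM in replicate 2 and 137278 TPM in replicate 3, or 103672 ± 63699 TPM (SD, n = 3). Replicate 1 was thus the low library, and replicates 2 and 3 lay close together. These levels amounted to 3.02%, 14.4% and 13.7% of all TPM in replicates 1, 2 and 3. By expected counts the RNA took a much smaller part, since TPM divides by a short effective length. Rmrp had 26320, 150153 and 118298 expected counts in replicates 1, 2 and 3. These were 0.211% (0.208 to 0.213), 0.692% (0.689 to 0.696) and 0.702% (0.698 to 0.706) of the counts on genes, with exact 95% binomial intervals that cover counting error only. Among all gene entries the ribozyme entry alone ranked 6, 1 and 1 by TPM in the gene table, and 25, 8 and 7 by expected counts. By TPM in the read-based table it ranked 6, 6 and 3. Summed Rmrp took 1.56%, 4.81% and 5.10% of all TPM there in replicates 1, 2 and 3.

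The low value of replicate 1 was also present after scaling of the libraries. In CPM, counts relative to the library's total after scaling with edgeR's trimmed mean (TMM) factors, Rmrp had 2061 in replicate 1, 7230 in replicate 2 and 6871 in replicate 3. The SD of log2 CPM over the 3 libraries was 1.02, larger than that of 98.7% of 10296 genes with a mean count of at least 50, whose median SD was 0.29. Among other RNA polymerase III transcripts, Rn7sk, the RNA that holds back transcription elongation, had an SD of 0.45. The starting amount of RNA differed in every library, so library and starting amount cannot be told apart.

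The lincRNA entry held a varying part of the Rmrp signal. Its level in the gene table was 1215, 28574 and 15136 TPM in replicates 1, 2 and 3, beside 28992, 114957 and 122142 TPM on the ribozyme entry. This was 4.02%, 19.9% and 11.0% of summed Rmrp TPM, a mean of 11.7% ± 7.96 (SD, n = 3). The share was lowest in replicate 1 and highest in replicate 2 in each of the 4 measures deposited. In the read-based table it was 4.13%, 26.9% and 14.9% of TPM, or 15.3% ± 11.4. The deposited posterior SD of the expected count, which states how firmly the authors' model divides reads, was 84.2, 333 and 272 counts on the ribozyme entry in replicates 1, 2 and 3. It was 0.39, 0.27 and 0.31 counts on Rpph1, which has 1 entry. The split is therefore given as the authors' estimate, and whether longer RNA ends differed between the libraries was not tested.

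Rpph1, the RNA of RNase P, was far lower than Rmrp and changed less between libraries. Its level in the gene table was 2643, 1762 and 2619 TPM in replicates 1, 2 and 3, or 2341 ± 502 TPM (SD, n = 3). Replicate 2 was the low library, whereas Rmrp was lowest in replicate 1. Rpph1 had 3475, 2914 and 3582 expected counts, which were 0.0278%, 0.0134% and 0.0213% of the counts on genes in replicates 1, 2 and 3. With TMM scaling it had 272 CPM in replicate 1, 140 in replicate 2 and 208 in replicate 3. The SD of log2 CPM was 0.48, larger than that of 78.3% of the 10296 genes. Rpph1 ranked 43, 55 and 36 by TPM among all gene entries in replicates 1, 2 and 3.

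**Figure D1:**
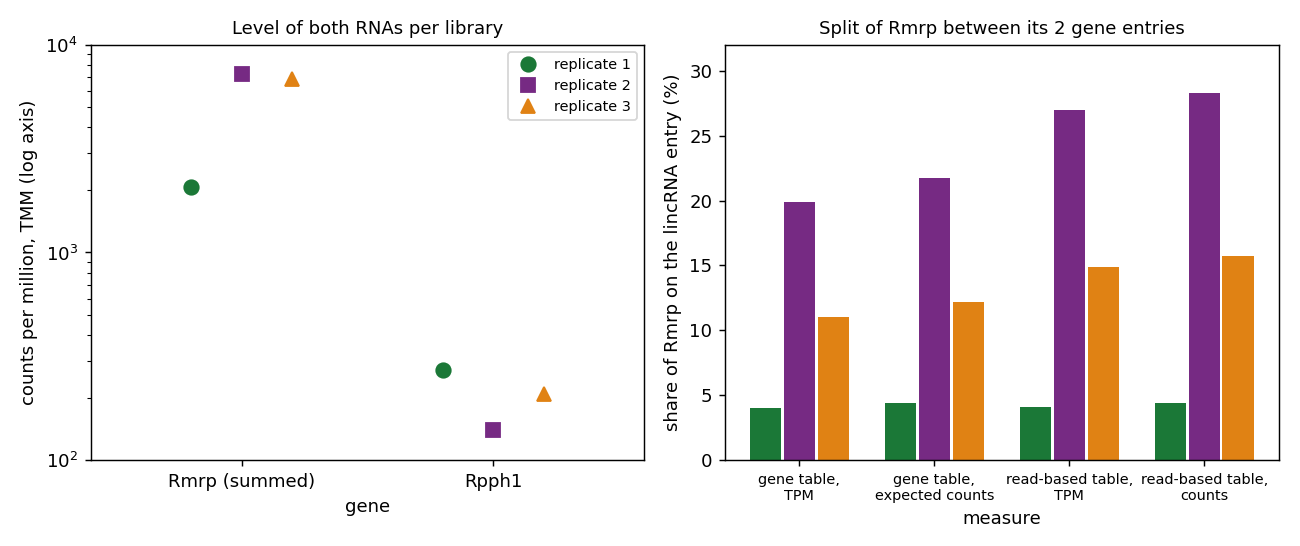
Left, CPM with TMM factors (log axis) of Rmrp, with its 2 entries summed, and of Rpph1 in each library. Right, the percent of Rmrp assigned to the lincRNA entry in each library by 4 deposited measures, as bars from 0. Rmrp was lowest in replicate 1, at 2061 CPM, and Rpph1 was highest there, at 272, while the lincRNA share was lowest in replicate 1 by all 4 measures.

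Rmrp exceeded Rpph1 in 3 of 3 libraries. The ratio of their TPM was 11.4, 81.4 and 52.4 in replicates 1, 2 and 3. The difference of log2(TPM + 1), Rmrp minus Rpph1, was 3.51, 6.35 and 5.71, with a mean of 5.19 ± 1.49 (SD, n = 3). The sign-flip permutation test (exact, two-sided) gave p = 0.25, which is the smallest p that 3 libraries allow. In the read-based table the mean difference was 4.98 ± 1.44, again with Rmrp higher in 3 of 3 libraries. The ratio was smallest in replicate 1, where Rmrp was lowest and Rpph1 was highest.

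The deposited tables gave nearly the same counts for both RNAs and clearly different TPM. Rmrp had 30208, 143531 and 137278 TPM in the gene table, against 15628, 48100 and 51004 TPM in the read-based table. Rpph1 had 2643, 1762 and 2619 TPM in the gene table, against 1520, 701 and 1136 TPM in the read-based table. Both RNAs were thus higher in the gene table in 3 of 3 libraries. On the log2(TPM + 1) scale the gene table minus the read-based table was 1.32 ± 0.33 for Rmrp and 1.11 ± 0.28 for Rpph1 (SD, n = 3). The exact sign-flip permutation test gave p = 0.25 for each, the smallest possible.

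In counts the direction was the opposite. Rmrp had 26320, 150153 and 118298 expected counts in the gene table, against 27910, 166984 and 131777 in the read-based table. Rpph1 had 3475, 2914 and 3582 expected counts in the gene table, against 3680, 3239 and 3925 in the read-based table. The difference of log2(count + 1) was -0.13 ± 0.04 for Rmrp and -0.12 ± 0.04 for Rpph1, and it was negative in 3 of 3 libraries for each.

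The tables differed in the effective length by which the counts are divided. This is the number of positions at which a fragment could start, and it is short when fragments are almost as long as the RNA. For the Rmrp ribozyme entry of 271 bases it was 79.9, 52.1 and 56.5 bases in the gene table, against 104, 102 and 101 bases in the read-based table. For Rpph1 it was 121, 84.2 and 90.9 bases in the gene table, against 141, 138 and 136 bases in the read-based table. The effective length in the gene table was longest in replicate 1, where the TPM ratio between the tables was smallest for both RNAs, at 1.93 for Rmrp and 1.74 for Rpph1. The labels list a library size range of 250 to 400 without a unit. Each table also scales to its own total, so its TPM are relative to different sums.

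The 7 protein subunit genes were present at low levels. From the gene table, 5 of the 7 reached 1 TPM in each library, beside 41.1% of all 22028 protein-coding genes. From the read-based table, 6 of the 7 did, beside 52.2% of them. A level of 5 TPM in each library was reached by 2 of the 7 from the gene table, beside 26.9% of all protein-coding genes, and by 3 of the 7 from the read-based table, beside 34.0%. The median of the 7 was 2.48, 3.25 and 2.55 TPM in replicates 1, 2 and 3, or 2.76 ± 0.43 TPM. Over all protein-coding genes it was 0.35 ± 0.01 TPM, and over the 9701 whose mean reached 1 TPM it was 9.66 ± 0.51 TPM. Summed, the 7 genes had 22.9, 24.8 and 28.6 TPM in the gene table.

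Pop4 encodes a subunit that contacts the RNA and was highest in the gene table. It had 5.97, 7.83 and 7.62 TPM in replicates 1, 2 and 3, from 64, 122 and 95 expected counts. Its mean was 7.14 ± 1.02 TPM (SD, n = 3), and its level lay above that of 73.1% to 75.5% of protein-coding genes, depending on the library. Pop5, a subunit that pairs with Rpp30 in the core, had 5.55, 3.89 and 7.16 TPM, or 5.53 ± 1.64 TPM. Its counts were 55, 69 and 88 in replicates 1, 2 and 3.

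Rpp30 had the smallest CV of TPM among the subunit genes in the gene table, 3.11%. In TMM CPM its CV was 16.5%, above the 7.94% of Pop4 and the 9.40% of Rpp38. It had 5.11, 5.39 and 5.11 TPM in replicates 1, 2 and 3, or 5.20 ± 0.16 TPM, from 80, 143 and 85 expected counts. Pop1, which encodes the largest of these proteins, had 2.48, 3.25 and 2.55 TPM, or 2.76 ± 0.43 TPM. Its counts were 53, 148 and 118.

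The remaining 3 rested on few counts. Pop7, which encodes one of a pair of subunits that bind the RNA together, had 0.74, 2.62 and 2.08 TPM from 6, 37 and 22 counts. The count of 6 in replicate 1 has an exact 95% Poisson interval of 2.20 to 13.1, which covers counting error only. Rpp38, a relative of ribosomal protein L7a that binds kink-turn RNA, had 1.87, 1.63 and 1.59 TPM from 17, 25 and 19 counts.

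Rpp40 had the largest coefficient of variation (CV, SD over mean) of gene-table TPM among the subunit genes, 90.2%, whereas in TMM CPM and in the read-based table that of Pop7 was larger, at 56.3% and 38.0% against 50.2% and 22.4% for Rpp40. Its gene-table level was 1.18, 0.19 and 2.52 TPM from 5, 12 and 18 expected counts, so the library with the lowest TPM was not the one with the lowest count. Its transcript Rpp40-203, which is 276 bases long, held 0.97, 0 and 1.96 expected counts and 1.06, 0 and 2.18 TPM in replicates 1, 2 and 3. Without that transcript the mean of Rpp40 was 0.21 ± 0.12 TPM instead of 1.30 ± 1.17 TPM (SD, n = 3). Most of the TPM of Rpp40 in replicates 1 and 3 was thus the worth of 0.97 and 1.96 estimated reads.

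**Figure D2:**
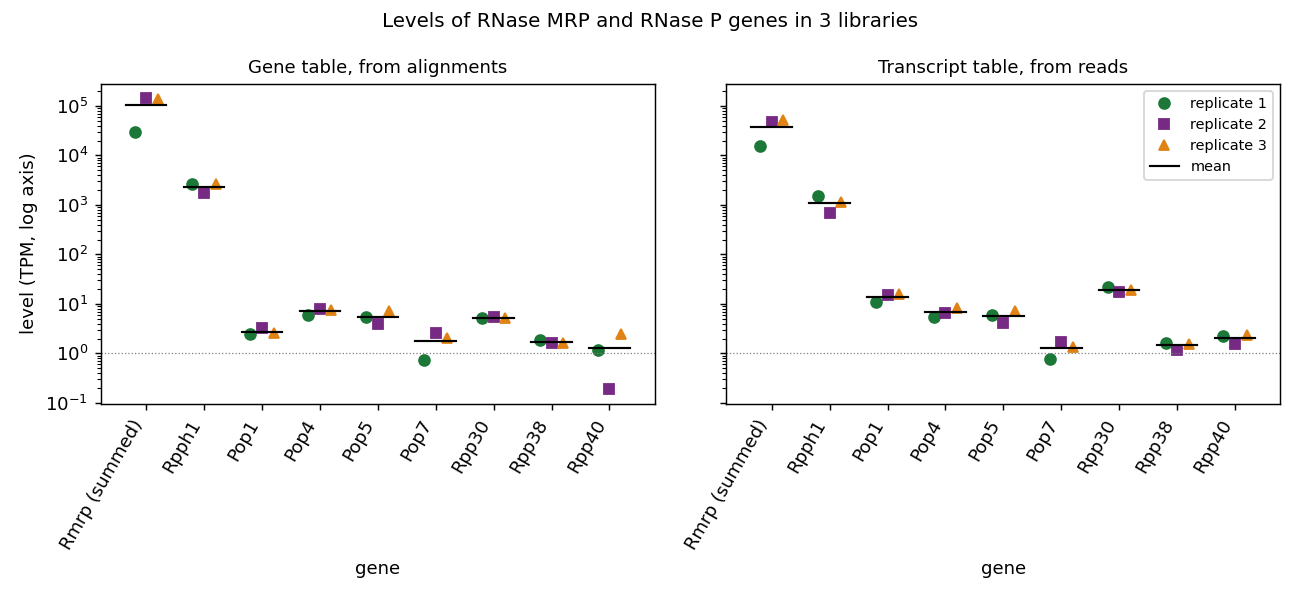
Level in TPM (log axis) of the 9 genes in each library, with the gene table left and the read-based table right. Symbols are libraries, horizontal lines are means of 3 libraries and the dotted line is 1 TPM. The lower of the 2 RNAs, Rpph1, had at least 701 TPM in either table, and the highest value of any subunit gene was 21.6 TPM.

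Both RNAs stood far above every protein subunit gene in all 3 libraries and both tables. Rpph1, the lower RNA, had 443, 225 and 344 times the TPM of Pop4, the highest subunit gene, in replicates 1, 2 and 3 of the gene table. In the read-based table it had 70.5, 40.4 and 60.3 times the TPM of Rpp30, the highest there. On the log2(TPM + 1) scale the lower RNA minus the highest subunit was 8.15 ± 0.47 in the gene table and 5.72 ± 0.42 in the read-based table (SD, n = 3). The difference between the medians of the RNAs and of the subunits was 11.86 ± 0.53 in the gene table and 9.87 ± 0.29 in the read-based table. With counts divided by the annotated length in place of the effective length, the lower RNA still exceeded the highest subunit by 6.87 ± 0.67. These are descriptions without a test. Each RNA acts as RNA in its enzyme, and whether it was mature or bound here was not tested. The subunit genes are seen as messenger RNA and its precursors, so no amount of protein can be read from them.

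The order of the subunit genes was only partly stable. In the gene table it ran Pop4, Pop5, Rpp30, Pop1, Pop7, Rpp38 and Rpp40. Of the 6 neighbouring pairs in that order, 3 had the same order in 3 of 3 libraries, Pop4 over Pop5, Rpp30 over Pop1 and Pop1 over Pop7. Pop5 exceeded Rpp30 in 2 of 3 libraries by a mean log2 difference of 0.04 ± 0.40, and Pop7 and Rpp38 differed by -0.0037 ± 0.63. Rpp38 exceeded Rpp40 by 0.37 ± 0.79 and in 2 of 3 libraries. The clearest step was Rpp30 over Pop1, at 0.73 ± 0.12, with an exact sign-flip permutation p = 0.25, and p = 0.50 after Benjamini-Hochberg adjustment over the 6 pairs.

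The read-based table placed Rpp30 and Pop1 first. Rpp30 had 21.6, 17.4 and 18.8 TPM there in replicates 1, 2 and 3, and Pop1 had 11.1, 14.8 and 15.6 TPM. The order ran on through Pop4 with 6.79 ± 1.54 TPM, Pop5 with 5.71 ± 1.55, Rpp40 with 2.07 ± 0.46, Rpp38 with 1.47 ± 0.27 and Pop7 with 1.27 ± 0.48. On the log2 scale the gene table minus the read-based table was -1.97 ± 0.22 for Pop1 and -1.70 ± 0.18 for Rpp30, negative in 3 of 3 libraries for both. It was between -0.04 and 0.26 for Pop4, Pop5, Pop7 and Rpp38, and -0.54 ± 0.57 for Rpp40. Pop1 and Rpp30 were thus lower in the gene table, where both RNAs were higher.

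For Rpp30 and Pop1 the difference lay mostly in transcripts other than those annotated as protein-coding. The retained-intron transcript Rpp30-205 had 26, 54 and 32 expected counts in the table from alignments, against 360, 489 and 387 in the read-based table. The retained-intron transcript Rpp40-204 had 3, 8.74 and 13.9 expected counts in the table from alignments, against 90.3, 143 and 128 in the read-based table. Retained-intron transcripts of Pop1 together had 0.60 ± 0.52 TPM in the table from alignments, against 7.89 ± 1.11 TPM in the read-based table. Pop1-203, the highest of them in the table from alignments, held 2, 2 and 0 expected counts there in replicates 1, 2 and 3. The protein-coding transcripts of both genes differed much less. Those of Pop1 had 2.15 ± 0.57 TPM in the table from alignments, against 2.67 ± 0.64 TPM in the read-based table. Those of Rpp30 had 0.86 ± 0.26 TPM in the table from alignments, against 1.04 ± 0.29 TPM in the read-based table. Those of Rpp40 had 1.11 ± 1.09 TPM in the table from alignments, against 0.48 ± 0.31 TPM in the read-based table.

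Counted on protein-coding transcripts only, the subunit genes were low in both tables. Pop1, with 2.15 ± 0.57 TPM in the table from alignments, was then the highest, followed by Pop4 with 1.91 ± 0.04 TPM. Pop5 had 0.10 ± 0.09 TPM there, against 0.47 ± 0.16 TPM in the read-based table. Most of Pop5 lay on Pop5-203, a transcript annotated for nonsense-mediated decay, with 3.09, 2.38 and 3.73 TPM in replicates 1, 2 and 3. This was 56.3% ± 4.49 of its TPM, and 59.8% ± 3.28 in the read-based table. These transcript values were examined after the levels had been seen.

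Of the 7 subunit genes, 5 have an annotated retained-intron transcript, and Pop7 and Rpp38 have none. The median share of TPM on such transcripts over those 5 was 39.3%, 57.8% and 26.4% in replicates 1, 2 and 3 of the table from alignments, or 41.2% ± 15.8. In the read-based table it was 71.6%, 64.1% and 67.3%, or 67.7% ± 3.79. The median over all 5881 protein-coding genes that have one and reach 1 TPM in each library was 48.1% ± 2.41 in the table from alignments and 45.9% ± 1.15 in the read-based table. The median of the 5 lay below that of all genes in replicates 1 and 3 of the table from alignments and above it in replicate 2, and above it in 3 of 3 libraries of the read-based table. Among the 5, Rpp40 missed the limit of 1 TPM, with 0.19 TPM in replicate 2. Its shares from alignments were 7.69%, 78.9% and 12.3% in replicates 1, 2 and 3, on 5, 12 and 18 counts. The median of 39.3% in replicate 1 was the share of Pop1, whose retained-intron transcript Pop1-203 held 2 expected counts there. The direction in the table from alignments rests partly on these low counts and is not firm. In the table from alignments Rpp30 had 76.9% ± 14.1 and Pop4 59.9% ± 6.68, both above the median of all genes, and Pop5 had 23.8% ± 3.79. Pop5 was below the median of all genes in the read-based table too, with 29.7% ± 2.83. Annotated transcripts are a coarse measure of unspliced RNA, since introns that no transcript retains are not counted.

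**Figure D3:**
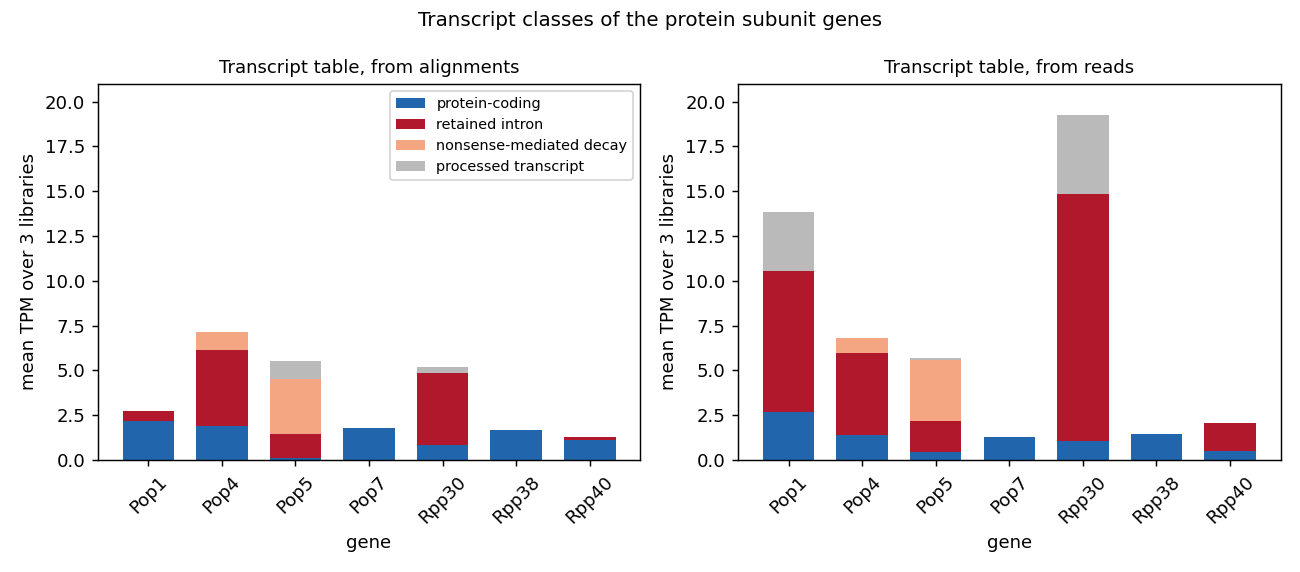
Mean TPM over 3 libraries of each subunit gene, stacked by the annotated class of its transcripts, with the table from alignments left and the read-based table right. Bars start at 0. The larger Pop1 and Rpp30 bars in the read-based table are mostly retained-intron transcripts, with 7.89 and 13.8 TPM.

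Several members share bases with other genes, and the sources used here do not say whether strand was used in counting. Rmrp overlaps Ccdc107, which lies on the opposite strand, over 124 exonic bases. Ccdc107 had 2.64, 3.94 and 1.96 TPM, so its whole level was small beside Rmrp. Rpph1 overlaps Ccnb1ip1, on the same strand, over 284 bases and shares 233 of its 319 bases with exons of that gene. Ccnb1ip1 had 0 expected counts in each library. Parp2, which encodes a poly(ADP-ribose) polymerase and runs the other way from Rpph1, begins 73 bases beyond it and had 18.4, 29.0 and 22.8 TPM. Parp2 was thus highest in replicate 2, the library in which Rpph1 was lowest.

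Among the subunit genes, Pop7 lies within an intron of a long Epo annotation, and Epo had 0 counts in each library. Pop5 overlaps the opposite-strand gene Rnf10 outside exons, and Rnf10 had 40.7 ± 3.89 TPM. Pop4 shares 12 exonic bases with Gm44767 and Rpp40 shares 80 with Gm48746, both at 0 counts. Nmt2 lies 71 bases from Rpp38 and Rida 48 bases from Pop1, with 8.72 ± 2.17 and 0.22 ± 0.05 TPM. Reads of Rnf10 introns that were assigned to Pop5 cannot be told apart from its own.

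In the gene table the remaining subunits and the mitochondrial RNase P genes had lower medians than the 7 subunit genes, at 0.87 ± 0.43 and 1.67 ± 0.27 TPM. The other lists of pathway genes had higher medians. Of the 4 remaining protein subunits, only Rpp21, which in human cells belongs to RNase P, reached 1 TPM in each library, with 6.30 ± 1.22 TPM. Rpp14 had 0.94 ± 0.65 TPM and Rpp25l 0.79 ± 0.23 TPM. Rpp25, which in human cells encodes the partner of the Pop7 protein, had 0 counts in each library. At a count of 0 the level could still be as high as 0.227, 0.132 and 0.170 TPM in replicates 1, 2 and 3, the worth of 3 counts. Its relative Rpp25l had 4, 12 and 7 counts.

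Of the 3 matched genes of the protein-only RNase P of mitochondria, 2 reached 1 TPM in each library. Trmt10c was highest with 2.23 ± 0.45 TPM and Hsd17b10 lowest with 0.67 ± 0.29 TPM. Among 10 genes that act on transfer RNA precursors, 9 reached 1 TPM in each library, beside 41.1% of all protein-coding genes. Ssb, which encodes the La protein that binds the ends of RNA polymerase III transcripts, was highest with 35.8 ± 2.79 TPM. All 12 genes of ribosomal RNA maturation reached 1 TPM in each library of the gene table. They ran from Wdr12 with 1.76 ± 0.66 TPM to the exonuclease gene Xrn2 with 84.4 ± 18.4 TPM. The low place of Wdr12 holds for the gene table only, since in the read-based table it had 30.0 ± 3.73 TPM.

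RNA from genes of the machinery that makes both RNAs was also detected, from which no amount of protein can be read. A list of 11 genes covers initiation by RNA polymerase III and its control, with Maf1, a repressor of that polymerase. All 11 reached 1 TPM in each library of the gene table, beside 41.1% of all protein-coding genes. Bdp1 was highest of them at 46.5 ± 11.4 TPM and Snapc2 lowest at 1.60 ± 0.67 TPM. Of 13 polymerase subunit genes 12 reached 1 TPM, with Polr3c highest at 29.9 ± 3.98 TPM and Polr3g lowest at 0.49 ± 0.28 TPM. From the read-based table, 10 of the 11 and 13 of the 13 did, beside 52.2% of all protein-coding genes. List medians were 8.67 ± 0.98 TPM for initiation, 8.75 ± 1.37 for the polymerase subunits, 9.91 ± 2.90 for ribosomal RNA maturation and 5.38 ± 0.52 for transfer RNA maturation. All 4 lay above the median of the 7 subunit genes, at 2.76 ± 0.43 TPM, in 3 of 3 libraries of the gene table. In the read-based table the mean of the medians was 6.35 TPM for transfer RNA maturation, against 5.55 TPM for the subunit genes. In replicate 3 there, its middle genes Tsen54 and Tsen15 had 6.43 and 6.73 TPM, below the subunit median of 7.17 TPM. These medians are descriptions of lists chosen with earlier results known. Among 15 other small structured RNAs 9 reached 1 TPM in each library of the gene table, and 12 did in the read-based table. The share over all noncoding genes was not computed, so these counts have no background beside them. The 9 RNAs of the gene table are not 9 separate signals, since Rnu3b1, Rnu3b2, Rnu3b3 and Rnu3b4 had identical values, as did Rn7s1 and Rn7s2. Rn7sk was highest of them, with 16248, 12492 and 22000 TPM, so Rmrp exceeded it in 3 of 3 libraries and Rpph1 in none. Rnu11, an RNA of the minor spliceosome, was listed at 0.

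**Figure D4:**
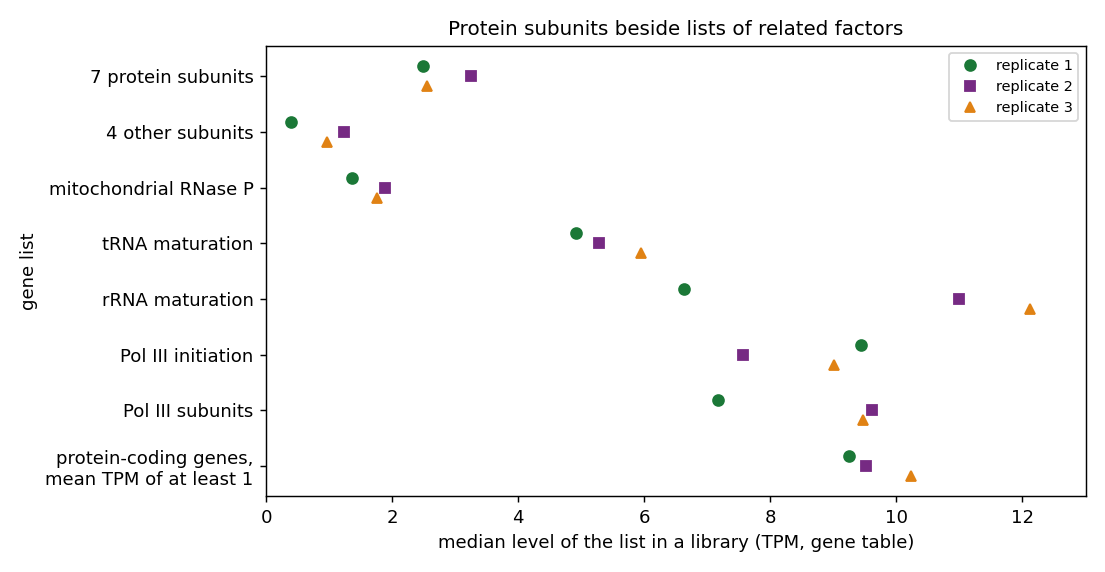
Median TPM of each gene list in each library of the gene table. Symbols are libraries. The median of the 7 subunit genes lay between 2.48 and 3.25 TPM, above those of the 4 other subunits and the mitochondrial enzyme and below those of the other lists.

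The genes most like each RNA in pattern over the 3 libraries were found by the root mean square difference of centred log2 TPM among genes whose mean reached 100 TPM. For Rmrp these were the small nucleolar RNAs Gm22486 and Gm22270 and the Cajal body RNA Scarna2, with differences of 0.18, 0.21 and 0.26. All 3 were lowest in replicate 1, as Rmrp was. Scarna2 for example had 555, 2169 and 1627 TPM in replicates 1, 2 and 3. For Rpph1 they were Sqstm1, Orai2 and H2-Q5, with differences of 0.03, 0.03 and 0.04. Sqstm1, which encodes an autophagy receptor, had 359, 230 and 350 TPM, lowest in replicate 2 as Rpph1 was. The TPM compared are divided by an effective length that differs between libraries for short RNAs. For the Rmrp ribozyme entry it was 79.9, 52.1 and 56.5 bases in replicates 1, 2 and 3. The part of this divisor in the likeness was not tested. The measure rests on 3 libraries and describes these only.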

How the data were processed

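Total RNA of the chromatin fraction was measured in 3 libraries of 1 group. Per the file headers and the text deposited with each sample, the authors made a gene table and a transcript table from alignments to the transcriptome, and a transcript table from the reads directly, on mm10 with GENCODE M21. Names of the aligner and quantifiers were not given in the sources used here, nor was use of strand. The deposited expected counts are estimated counts per feature and can be fractional. The authors scaled the deposited TPM over all features of a library, per effective length. The deposited tables also give effective lengths in bases and a posterior SD of counts as a score of the authors' model. Per the labels, replicates were not pooled.

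Genes were matched by identifier (55536 genes), and the 26345 rows that name no gene, with 1.34%, 0.292% and 0.416% of counts in replicates 1, 2 and 3, were left out. Both Rmrp entries were summed. Read-based TPM and counts were summed per gene. Log2 values used a pseudocount of 1 and no filter, and differences within libraries were given as mean and SD with an exact sign-flip permutation test. Rounded expected counts gave TMM factors in edgeR 4.0.16 and size factors in DESeq2 1.42.0, with no test between groups. Both steps were tested on simulated data. R 4.3.3, Python 3.11.15, numpy 2.4.6, pandas 2.3.3, scipy 1.17.1 and matplotlib 3.10.9 were used. The libraries were no duplicates: chi-square per degree of freedom was 46.4 to 242 between pairs. Named genes were the members, their overlapping or near neighbours within 1000 bases, the highest and lowest gene of each list, and 3 genes most like each RNA, of which a few are not reported here. The remaining subunits and the transcripts were named in addition, after their values were seen. Members and lists were chosen with earlier results of these data known. Of 9 members 6 had a RefSeq promoter in the reference table, and none was printed.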

Additional observations from a re-analysis of the deposited data

How the results depend on the processing

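Rmrp stayed above Rpph1, and both RNAs above the subunit genes, under all alternatives run. Rmrp minus Rpph1 was 4.78 to 5.19 (log2) under other tables, lengths, pseudocounts or with the ribozyme entry alone, and 4.61 to 6.03 with a library left out. The lower RNA minus the highest subunit was 5.72 from the read-based table, 6.87 with annotated lengths and 7.94 to 8.41 with a library left out; the medians differed by 9.87, 10.29 and 11.60 to 12.13 likewise. Leaving out subunits under a mean of 1 TPM removed none. The gene table minus the read-based table reversed in counts, to -0.13 for Rmrp and -0.12 for Rpph1. Counts carry neither the effective length nor the scaling to a table's total, and their parts were not separated. Without 1 library it was 1.19 to 1.50 for Rmrp and 1.00 to 1.27 for Rpph1, and with TPM rescaled to protein-coding genes 1.70 and 1.49. The lincRNA share of Rmrp was 7.52% without replicate 2 and 15.5% without replicate 1.

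Of the gene table's 6 neighbouring pairs, 3 kept their order in each library of that table, 4 with any 1 library left out, 2 in the read-based table (whose own order kept 4 of 6), and 1 (alignments) or 3 (reads) on protein-coding transcripts, an alternative chosen after seeing the data. Pop5 minus Rpp30 reversed to -1.62 in the read-based table, to -0.14 without replicate 3 (range with a library left out -0.14 to 0.26), and to -0.76 (alignments) and -0.47 (reads) on protein-coding transcripts. Rpp30 minus Pop1 reversed to -0.75 and -0.84 on those transcripts, and Rpp38 minus Rpp40 to -0.31 in the read-based table and -0.023 without replicate 2, 0.77 without replicate 3. Pop7 minus Rpp38 was -0.24 to 0.36 with a library left out. The cause was not tested. The retained-intron share was 67.7% in the read-based table and 32.8% to 48.5% with a library left out. At 5 TPM in place of 1, 2 of the 7 subunit genes, 5 of the transfer RNA genes, 7 of the initiation genes and 0 of the mitochondrial RNase P genes were detected in each library. Of all protein-coding genes 26.9% were. Rescaling to protein-coding genes raises every TPM of a library by the same factor, so the rise of all 9 members was fixed in advance. It put Rpph1 at 7683 ± 1238 TPM. No paired analysis was possible because there is 1 group only, so that replicate numbers pair no groups; the differences above are taken within each library. Subunit counts of 5 to 148 limit their precision.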
